A study of Mus musculus with 34 samples.

Results

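In mouse splenic B cells activated with lipopolysaccharide, 4322 of 16861 H3K4me3 peaks were under 3000 bp wide and shared no base with an H3K27ac peak. They made up 25.6% of all H3K4me3 peaks and 28.2% of the 15341 under that width. The widths of the H3K4me3 peaks and the positions of the H3K27ac peaks chose these regions, so both are given below as a description of the regions and not as results. The regions are called H3K27ac-free peaks here, which means that the deposited list held no overlapping H3K27ac peak. The 11019 H3K4me3 peaks under the same width that did share a base with an H3K27ac peak are called acetylated peaks. A further 1509 acetylated peaks and 11 peaks without H3K27ac were at or over the width limit.

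H3K4me3 is trimethylation of lysine 4 of histone H3, a mark of promoters that is laid down most readily where CpG dinucleotides are dense and unmethylated. H3K27ac is acetylation of lysine 27 of the same histone and accompanies active promoters and enhancers. Promoters of developmental regulators in many cell types are known to carry H3K4me3 while their genes are not transcribed, and H3K4me3 can also lie at alternative promoters, promoters of non-coding RNAs and CpG islands inside genes.

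The cells came from spleens of C56BL/6J mice, as the labels spell the strain, aged 6 to 8 weeks, and were the CD43-negative fraction, a gate used to enrich B cells. Activated cells had 3 days of culture with lipopolysaccharide at 10 µg/ml, a bacterial product that drives B cells to divide and to become plasma cells. Resting B cells were the control. The culture fields of the resting samples repeat the lipopolysaccharide treatment, so they were grouped as resting by titles, source names and the series design. RNA was measured in 2 activated and 2 resting samples, and each peak list (H3K4me3, H3K27ac, FAIRE and STARR) was a single list for activated cells. The STARR samples are labelled 12 h or 24 h, and their single list is not split by time. Nothing in the labels says whether the 2 samples of a group were separate animals, so the tests measure only the spread between these samples.

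B cell genes were high in all 4 samples. Cd79a, a signalling subunit of the B cell receptor, had 530.1 and 417.0 FPKM in activated cells and 766.1 and 706.5 FPKM in resting cells. FPKM is a level corrected for transcript length and for sequencing depth, a unit inferred here from the values. Lists of myeloid, erythroid, T cell, NK cell and endothelial genes had lower sums in activated samples, and a dendritic cell list did not. Sums of the B cell identity, quiescence and homing, and cytokine and chemokine lists were lower there too. Those of the plasma cell, cell cycle and germline lists were higher. The B cell identity sum was 2581 and 1812 FPKM in activated cells and 5189 and 5598 FPKM in resting cells. The summed level of 15 myeloid genes was 24.5 and 27.8 FPKM in activated cells and 480.2 and 886.0 FPKM in resting cells. That of 8 erythroid genes was 15.1 and 6.46 FPKM in activated cells and 1977 and 15244 FPKM in resting cells. The sum of 7 dendritic cell genes was 33.2 and 22.0 FPKM in activated cells and 30.3 and 31.9 FPKM in resting cells, with overlapping groups. In activated cells C1qa and C1qb, which define macrophages, and the T cell receptor genes Cd3d, Cd3e and Cd3g were listed at 0 in both samples. Other markers of such cells were not at 0. In activated cells C1qc had 0 and 0.111 FPKM and the myeloid marker Lyz2 had 0.268 and 6.51 FPKM. The T cell marker Lck had 2.53 and 1.58 FPKM there, and Pecam1, from the endothelial markers, had 25.2 and 17.4 FPKM. The endothelial markers Cdh5 and Kdr were far lower in activated cells. Cdh5 had 0.227 and 0.311 FPKM there, and Kdr had 0.0448 and 0 FPKM. A single fragment in a transcript of 1 kb was worth 0.0966 and 0.0596 FPKM in the activated libraries and 0.0696 and 0.0705 FPKM in the resting ones, read from the steps between low values of single-exon genes. A level of 1 FPKM thus rested on 10.4 to 16.8 fragments per kilobase.

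The median width of H3K27ac-free peaks, which the rule limits, was 631 bp, against 1549 bp for acetylated peaks. Exactly 500 bp, the smallest width in the list, was the width of 2001 of them (46.3%), against 969 acetylated peaks (8.79%). The widest inside the limit were 2959, 2941 and 2937 bp, and the narrowest without H3K27ac outside it were 3127 bp at the histone genes Hist1h2af and Hist1h3g, 3210 bp at Dpf3 and 3245 bp at Tsc22d3. At the other edge of the rule, the H3K27ac-free peaks nearest to H3K27ac lay 8, 10 and 13 bp from it, and the acetylated peaks that shared least with it shared 9, 9 and 11 bases. The median distance to the nearest H3K27ac peak was 27452.5 bp, and 200 H3K27ac-free peaks (4.63%) had one within 1 kb. On the X chromosome lay 128 H3K27ac-free peaks (2.96%) and 298 acetylated peaks (2.70%).

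Of the H3K27ac-free peaks, 1839 (42.5%) lay within 1 kb of an end of a gene locus, 1124 (26.0%) lay deeper inside a locus, and 1359 (31.4%) lay outside genes. The deposited RNA table gives a locus without strand, so either end counted. The peaks at gene ends were wider, with a median of 830 bp, than the other 2483, with a median of 500 bp. Of those at gene ends, 1696 reached 1 gene, 139 reached 2 and 4 reached 3, so some genes below share a peak.

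To show what kind of sequence lies at such promoters, the 250 bases before the annotated start are printed for 5 genes that are described below. Igf1r and Gfra1 had the widest H3K27ac-free peaks among silent genes. Plaur and Xkrx were silent in activated cells but well expressed in resting cells. Fis1 was highly expressed in both. Sequences are from RefSeq on GRCm38.p6, 5′ to 3′ on the gene's strand, with each CpG in capitals. The peaks are on mm9, so peak and promoter were not compared by coordinate.
Igf1r, chr7:67952007-67952256, plus strand: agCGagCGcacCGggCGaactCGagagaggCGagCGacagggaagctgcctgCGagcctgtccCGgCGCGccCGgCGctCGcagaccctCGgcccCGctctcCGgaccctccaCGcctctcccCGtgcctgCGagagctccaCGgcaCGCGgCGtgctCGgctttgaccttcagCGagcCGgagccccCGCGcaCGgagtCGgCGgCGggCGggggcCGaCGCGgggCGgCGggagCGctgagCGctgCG
Gfra1, chr19:58455399-58455648, minus strand: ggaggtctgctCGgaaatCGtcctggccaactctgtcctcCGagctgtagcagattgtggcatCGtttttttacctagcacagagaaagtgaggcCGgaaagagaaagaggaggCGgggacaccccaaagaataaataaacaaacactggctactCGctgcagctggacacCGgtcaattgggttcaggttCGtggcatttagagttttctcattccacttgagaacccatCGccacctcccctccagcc
Plaur, chr7:24462233-24462482, plus strand: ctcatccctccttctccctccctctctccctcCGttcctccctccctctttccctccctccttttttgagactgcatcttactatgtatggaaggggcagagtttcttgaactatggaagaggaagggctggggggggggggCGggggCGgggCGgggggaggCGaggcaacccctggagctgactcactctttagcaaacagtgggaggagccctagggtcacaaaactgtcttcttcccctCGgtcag
Xkrx, chrX:134162960-134163209, minus strand: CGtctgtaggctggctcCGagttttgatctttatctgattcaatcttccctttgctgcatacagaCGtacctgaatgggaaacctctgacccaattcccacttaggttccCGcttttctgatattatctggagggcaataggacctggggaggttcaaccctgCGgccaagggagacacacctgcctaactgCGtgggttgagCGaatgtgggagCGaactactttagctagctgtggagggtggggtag
Fis1, chr5:136953025-136953274, plus strand: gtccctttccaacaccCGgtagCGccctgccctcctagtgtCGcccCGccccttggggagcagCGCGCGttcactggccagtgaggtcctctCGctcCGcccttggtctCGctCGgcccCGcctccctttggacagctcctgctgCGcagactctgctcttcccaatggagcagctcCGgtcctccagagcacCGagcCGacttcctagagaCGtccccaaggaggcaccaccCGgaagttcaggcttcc
The 250 bases held 42 CpG in Igf1r, 10 in Gfra1, 6 in Plaur, 8 in Xkrx and 18 in Fis1. Silent genes thus stood at both the CpG-rich and the CpG-poor end of these 5. Only 74.4% of the genes near H3K27ac-free peaks matched a RefSeq promoter, under the 80% needed, so no comparison of CpG content over all of them was made.

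A smaller share of H3K27ac-free than of acetylated peaks overlapped open chromatin. FAIRE-seq recovers nucleosome-poor DNA, and 1592 of the 4322 H3K27ac-free peaks (36.8%, exact 95% interval 35.4 to 38.3) shared a base with a FAIRE peak, against 10064 of 11019 acetylated peaks (91.3%, interval 90.8 to 91.9). At least 2 FAIRE peaks lay in 3.82% of H3K27ac-free peaks and in 35.7% of acetylated peaks. Intervals here cover counting error only, and since each assay has 1 list there is no replicate check and no p-value. With a FAIRE peak allowed within 1 kb the shares were 42.9% and 94.7%.

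The gap between the 2 kinds of peak was present within each width class. Among peaks of exactly 500 bp, 21.8% of the H3K27ac-free ones and 66.5% of the acetylated ones overlapped FAIRE. From 501 to 1000 bp the shares were 42.9% and 80.7%, and from 1001 to 1500 bp they were 58.1% and 92.7%. The 80 widest H3K27ac-free peaks, from 2001 to 2999 bp, reached 65.0%, which is below the 66.5% of the narrowest acetylated peaks, though its interval of 53.5 to 75.3 spans that value. The place of a peak in the deposited list was also unequal, with a median position of 13562 for H3K27ac-free peaks and 7044 for acetylated ones. What orders the list is not given in the sources used here. With the list cut into 10 equal parts, 17.2% of H3K27ac-free and 62.9% of acetylated peaks in the last part overlapped FAIRE. In part 5, where 116 peaks were H3K27ac-free, 83.6% and 96.8% did.

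**Figure D1:**
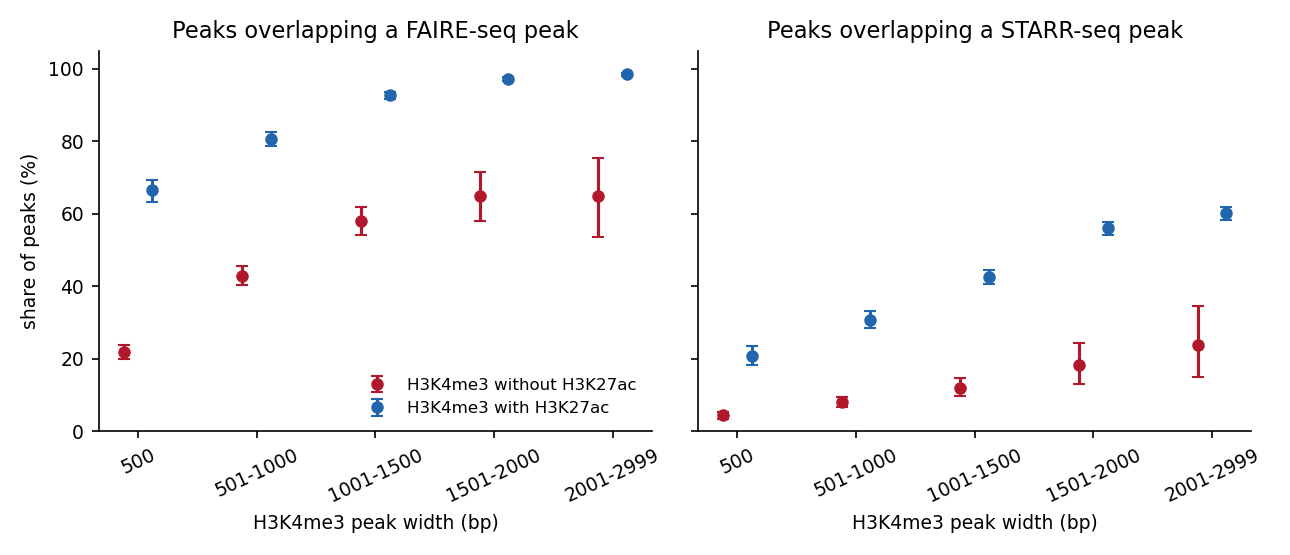
Share of H3K4me3 peaks (%) that overlapped a FAIRE peak (left) or a STARR peak (right) by peak width in bp, for peaks without H3K27ac (red) and with it (blue). Points are shares and bars exact 95% intervals for counting error; in every width class shown the red share lies below the blue one, and in FAIRE it is 21.8% against 66.5% at 500 bp.

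STARR-seq tests DNA fragments for enhancer activity by letting each drive its own transcription from a plasmid, and here the plasmid library was built from FAIRE DNA. A STARR peak overlapped 332 H3K27ac-free peaks (7.68%, interval 6.90 to 8.52) and 5189 acetylated peaks (47.1%, interval 46.2 to 48.0). Among the peaks that overlapped FAIRE, STARR overlap was 19.5% of H3K27ac-free peaks (310 of 1592) and 51.2% of acetylated peaks. Hi-C contact anchors overlapped 502 H3K27ac-free peaks (11.6%) and 65.8% of acetylated peaks. These anchors come from a deposited list that is named as filtered enhancer-promoter interactions, not from all contacts. The widths differed as given above. Neither their part nor that of the filter in the Hi-C shares was tested.

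Among H3K27ac-free peaks themselves, FAIRE overlap varied with place and with the level of the nearby gene. FAIRE overlap was 43.8% at gene ends, 35.2% outside genes and 27.5% inside loci. A gene is called silent here when the mean of its 2 activated samples was under 1 FPKM. Of the 355 H3K27ac-free peaks with at least 1 non-silent gene at hand, 62.3% (interval 57.0 to 67.3) overlapped FAIRE and 17.2% overlapped STARR. Of the 1484 whose genes were all silent, 39.4% (interval 36.9 to 41.9) overlapped FAIRE and 6.47% overlapped STARR. These peaks also differed in width, with medians of 1000 bp beside a non-silent gene and 800 bp beside silent genes only. Their median distances to H3K27ac were 15817 bp and 36866.5 bp. Inside loci the order was the other way round: 33.0% of the 563 H3K27ac-free peaks in silent host genes overlapped FAIRE, and 21.9% of the 561 in expressed host genes did.

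The 1839 H3K27ac-free peaks at gene ends reached 1944 of 23812 gene rows (8.16%). In activated cells 1579 of these genes were silent (81.2%, interval 79.4 to 82.9). For comparison, 1094 of 8525 genes reached by an acetylated peak and by no H3K27ac-free one were silent (12.8%), as were 10763 of 11704 genes reached by no H3K4me3 peak (92.0%) and 57.0% of all rows. The share was close in the single samples, 80.6% and 81.7% of genes under 1 FPKM in activated cells. The median level of the 1944 genes was 0.0864 FPKM in activated cells and 0.129 FPKM in resting cells. Of the 1944 genes, 223 (11.5%) were listed at 0 in all 4 samples, against 57.6% of genes with no H3K4me3 peak and 1.49% of genes with acetylated peaks.

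The 1944 genes were mostly low in resting cells as well. Under 1 FPKM in resting cells were 1467 of them (75.5%, interval 73.5 to 77.4), against 13.9% of genes with acetylated peaks and 89.2% of genes with no H3K4me3 peak. In both states 1391 (71.6%) were under 1 FPKM and 289 (14.9%) were at or above it. Silent in activated cells but at or above 1 FPKM in resting cells were 188 (9.67%), and 29 of these had a resting mean of at least 5 FPKM. The opposite pattern was seen in 76 genes (3.91%). Among the silent genes, 88.1% were also under 1 FPKM in resting cells, against 79.7% of silent genes with acetylated peaks and 96.0% of silent genes with no H3K4me3 peak.

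**Figure D2:**
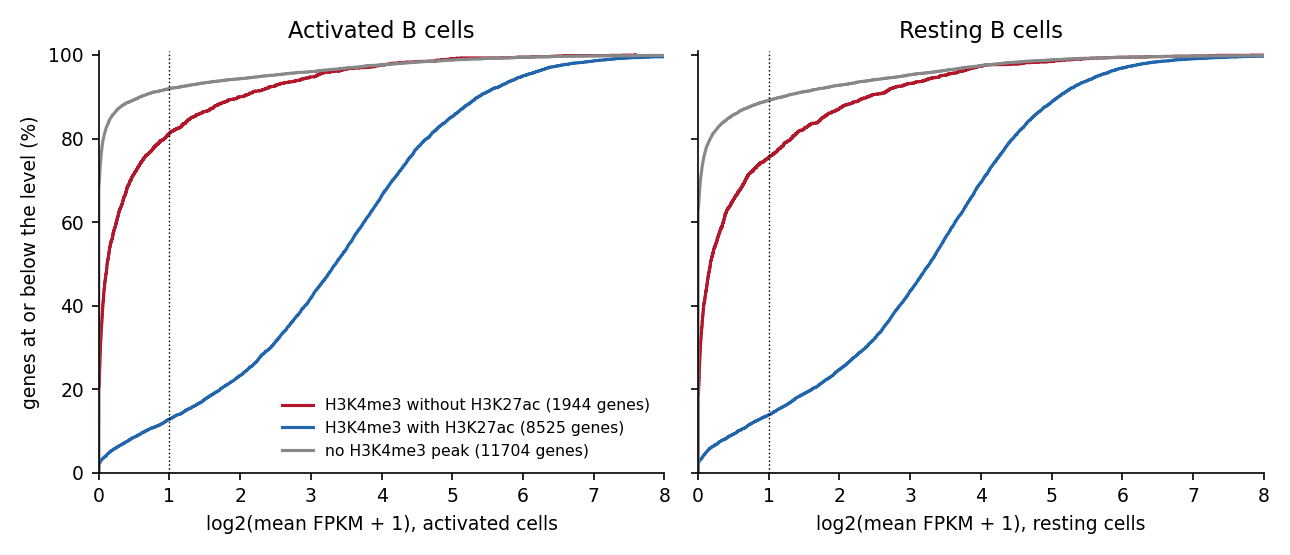
Cumulative share of genes (%) by mean level, log2(FPKM + 1), in activated (left) and resting (right) cells, for genes within 1 kb of H3K4me3 without H3K27ac (red), of H3K4me3 with H3K27ac but not of the first kind (blue) and of no H3K4me3 peak (grey). Red and blue rest on peaks under 3000 bp, and genes reached only by wider peaks are in no curve. The dotted line marks 1 FPKM, below which lie 81.2% of the red, 12.8% of the blue and 92.0% of the grey genes in activated cells.

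An acetylated peak of any width also reached 142 of the 1944 genes, and 46.5% of those were silent, against 84.0% of the other 1802. Of the 289 non-silent genes without an acetylated peak near an end, 51 (17.6%) had one elsewhere inside the locus, against 82 of 1513 silent ones (5.42%). The remaining 238 non-silent genes had no acetylated peak of any width at an end or inside the locus.

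H3K27ac-free peaks stood at many genes of embryonic patterning, cell guidance and excitable cells. The classes below rest on patterns in gene symbols and are described by counts alone. In 5 of them (developmental transcription factors, secreted developmental ligands, their Eph, Frizzled, plexin and related receptors, cadherins with protocadherins, and ion channels) 163 of 812 genes (20.1%) had an H3K27ac-free peak, against 1781 of the other 23000 rows (7.74%). Acetylated peaks, with no H3K27ac-free one, were at 75 of the 812 genes (9.24%). Of the 163, 153 were silent in activated cells (93.9%), against 732 of all 812 genes of these classes (90.1%), so silence was the rule in the classes with or without such a peak. The 163 were 8.38% of all genes near H3K27ac-free peaks. Of the 1944, 1489 belonged to no symbol class at all, counting the classes beyond these 5.

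Of 305 developmental transcription factors, 60 (19.7%) had an H3K27ac-free peak, and 58 of those were silent. Their median was 0 FPKM in activated cells and 0.0118 FPKM in resting cells, 23 were listed at 0 in all 4 samples, and 24 had a FAIRE peak in their widest H3K27ac-free peak. They included homeodomain factors (Dlx1, Dlx2, Dlx4, En2, Hoxa3, Hoxa7, Irx3, Irx5, Lhx1, Lhx2, Meis1, Meis2), forkhead factors (Foxc1, Foxc2, Foxd1, Foxf1, Foxq1) and T-box factors (Tbx2, Tbx15, Tbx21). Foxc1, a forkhead factor of eye and vessel development, had 0.0207 and 0 FPKM in activated cells and 0 and 0.0307 FPKM in resting cells under a peak of 2652 bp. Meis1, a homeodomain partner of Hox proteins, had 0.298 and 0.171 FPKM in activated cells and 0.401 and 0.277 FPKM in resting cells. Its peak of 2571 bp lay 802432 bp from the nearest FAIRE peak. Both genes were under 1 FPKM in every sample, with overlapping groups.

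The 2 transcription factors of this class that were not silent were Sox12 and Hes1, the latter named after its values were seen. Hes1, a repressor downstream of Notch, had 2.28 and 4.76 FPKM in activated cells and 23.0 and 23.2 FPKM in resting cells, and was called lower (limma, adjusted p = 0.00050). Sox12, an HMG-box factor, had 2.26 and 1.25 FPKM in activated cells and 1.06 and 1.01 FPKM in resting cells. The groups of Sox12 did not overlap, but the difference was not called (limma, adjusted p = 0.13), although without activated replicate 2 it was (adjusted p = 0.0301). Its peak of 2921 bp held 5 FAIRE peaks.

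Ligands and receptors of the same pathways showed the highest shares. An H3K27ac-free peak stood at 36 of 116 genes of the class named secreted developmental ligands (31.0%, 33 of the 36 silent). Among the 36 were Wnt2b, Wnt3, Wnt6, Wnt11, Fgf2, Fgf9, Dll1, Jag1, Nodal and Ntn1. The class goes by symbol and also holds ligands bound to the cell membrane, such as Dll1 and Jag1. Dll1, a Notch ligand, had 0.218 and 0.106 FPKM in activated cells and 0.578 and 0.648 FPKM in resting cells. The 3 non-silent ligands were Gdf11, Dkk3 and Gdf15, the last 2 named after their values were seen. Gdf11, a TGF-beta family ligand, fell to 2.74 and 1.20 FPKM in activated cells, against 11.7 and 10.5 FPKM in resting cells (limma, adjusted p = 0.00098). Dkk3, a secreted protein of the Dickkopf family, had 5.35 and 3.88 FPKM in activated cells and 0.555 and 0.589 FPKM in resting cells. Gdf15, a stress-induced member of the TGF-beta family, had 1.13 and 1.82 FPKM in activated cells and 0.374 and 0.0635 FPKM in resting cells. Dkk3 and Gdf15 passed the filter of the test described below only through activated cells, which fixes the direction of their calls, so no p is given.

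Among 48 receptors of the Eph, Frizzled, plexin, Patched, Smoothened and Unc5 kinds, 16 (33.3%) had an H3K27ac-free peak and 15 of those were silent. They included 6 Frizzled genes for Wnt receptors (Fzd2, Fzd3, Fzd4, Fzd6, Fzd7, Fzd9) and Smo, which transduces Hedgehog signals. Fzd7 had 0.0340 and 0.0853 FPKM in activated cells and 0.480 and 0.620 FPKM in resting cells. Plxna1, a semaphorin receptor, was the non-silent one and rose to 5.94 and 6.54 FPKM in activated cells, against 1.58 and 1.58 FPKM in resting cells (limma, adjusted p = 0.00050). Of 102 cadherin and protocadherin genes 18 (17.6%) had such a peak and all 18 were silent, 10 of them from the Pcdhg cluster, whose transcripts share exons, so that their values are not independent. Ion channels had it at 33 of 241 (13.7%), with 29 silent.

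Other classes lay lower or favoured acetylated peaks. Zinc finger genes had an H3K27ac-free peak at 7.49% and an acetylated peak alone at 66.5%. Solute carriers had them at 10.0% and 38.3%. None of 86 cytosolic ribosomal protein genes and none of 76 mitochondrial ones had an H3K27ac-free peak, while 62.8% and 86.8% had acetylated peaks under 3000 bp. Olfactory, vomeronasal and taste receptors, which are silent in B cells, had an H3K27ac-free peak at 2 of 1526 genes (0.131%). No gene of the lists of B cell identity (17 genes), plasma cell (13) or cell cycle (14) had one, while 15, 11 and 13 of them had an acetylated peak of any width. The lists of quiescence and homing (15 genes), NK cell (8) and germline (16) held none either.

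**Figure D3:**
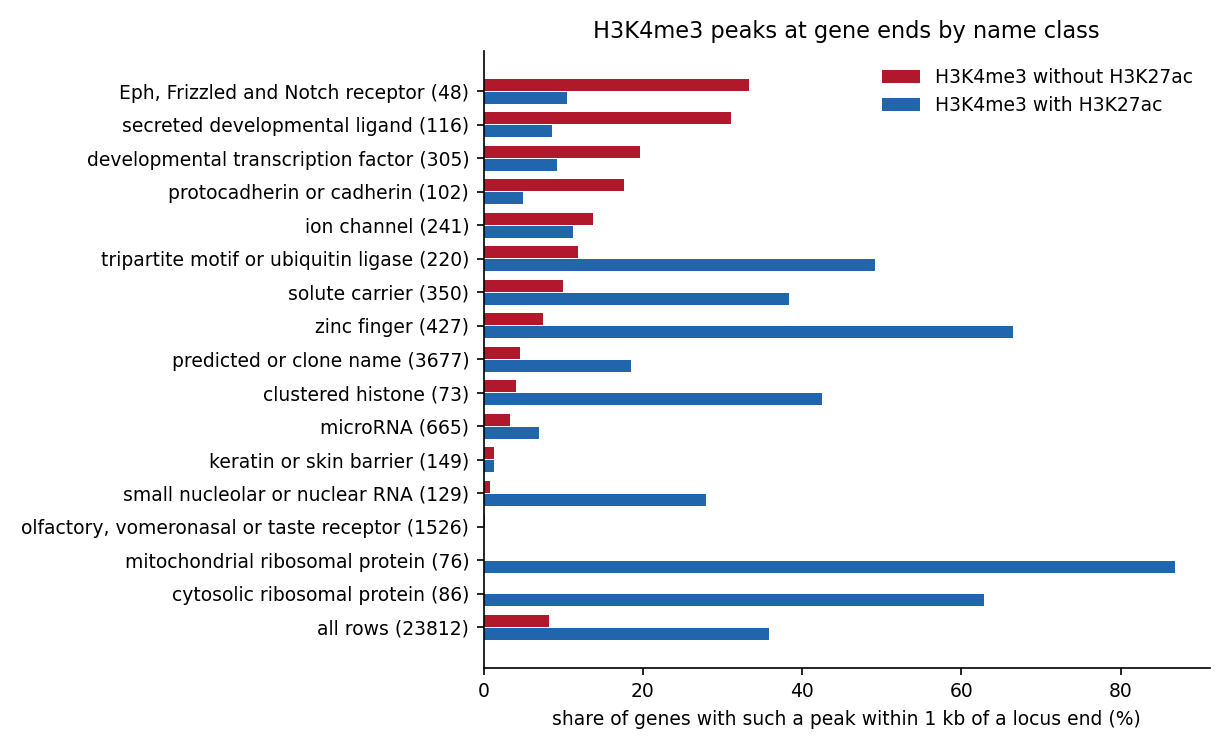
Share of genes (%) within 1 kb of an H3K4me3 peak without H3K27ac (red) or of one with H3K27ac and none without (blue), by symbol class, with the number of genes of each class in parentheses. Both colours count only peaks under 3000 bp. Red exceeds blue in the 5 developmental, adhesion and channel classes at the top, for example 31.0% against 8.62% of secreted developmental ligands, whereas over all rows red is 8.16%.

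Some genes of other blood lineages were among those with an H3K27ac-free peak. Their lists are short, and 8.16% of all rows had such a peak, so the counts are given as a description. The dendritic cell list (7 genes) and the erythroid list (8 genes) each held 1 such gene. Of 25 T cell genes 3 had one, all of them transcription factors and all silent in activated cells. Gata3, which specifies T helper 2 cells, was listed at 0 in both activated samples and had 0.0187 and 0.135 FPKM in resting cells, yet carried a peak of 2528 bp with 2 FAIRE peaks (mm9 chr2:9799909-9802436). Tbx21, which specifies T helper 1 cells and acts in B cells too, had 0.298 and 0.124 FPKM in activated cells and 1.41 and 1.77 FPKM in resting cells. Tcf7, a T cell factor of the Wnt pathway, had 0.269 and 0.0480 FPKM in activated cells and 2.17 and 3.87 FPKM in resting cells. The summed level of the 25 T cell genes was 87.3 and 64.3 FPKM in activated cells and 189.5 and 191.7 FPKM in resting cells. The part of T cells in these differences was not tested.

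Of 15 myeloid genes 2 had an H3K27ac-free peak. Cebpa, the factor that drives the myeloid fate, had 0.0320 and 0.0200 FPKM in activated cells and 1.34 and 2.77 FPKM in resting cells. Cd14, a co-receptor for lipopolysaccharide on monocytes, had 0.119 and 0.222 FPKM in activated cells and 5.67 and 4.92 FPKM in resting cells. Neither peak held a FAIRE peak. Epor, the erythropoietin receptor, had 0.0476 and 0.119 FPKM in activated cells and 1.58 and 2.29 FPKM in resting cells. Zbtb46, a factor of dendritic cells, fell to 1.07 and 0.318 FPKM in activated cells, against 3.23 and 2.83 FPKM in resting cells (limma, adjusted p = 0.0042). In these bulk samples fewer cells of a type and less RNA per cell cannot be told apart, and the myeloid and erythroid sums given above were lower in activated cells too. Their part was not tested. The dendritic cell sum, given above beside them, did not separate the groups, but single dendritic cell markers did. Itgax had 0.0614 and 0.0128 FPKM in activated cells and 11.5 and 9.81 FPKM in resting cells. Siglech had 0 and 0 FPKM in activated cells and 0.538 and 2.66 FPKM in resting cells. The part of dendritic cells was not tested either. Tbx21, Tcf7, Cebpa, Cd14 and Epor passed the filter of the test described below only through resting cells, which fixes the direction of their calls, so no p is given for them. Csf2, a growth factor for granulocytes and macrophages, had 1.93 and 0.567 FPKM in activated cells and 0.0660 and 0.202 FPKM in resting cells. It passed no filter and was not tested.

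The widest H3K27ac-free peaks at silent genes stood at Igf1r and Gfra1. Igf1r, the receptor of insulin-like growth factor 1, had 0.407 and 0.382 FPKM in activated cells and 0.430 and 0.394 FPKM in resting cells. Its peak of 2814 bp (mm9 chr7:75095646-75098459) held 1 FAIRE peak and lay 108591 bp from H3K27ac, and its locus contained an acetylated H3K4me3 peak elsewhere. Gfra1, a co-receptor of glial cell-derived neurotrophic factor, had 0.0775 and 0.0485 FPKM in activated cells and 0.0747 and 0.115 FPKM in resting cells under 2776 bp (mm9 chr19:58527731-58530506). All 4 samples were below 1 FPKM for both genes. Cited1, Lrrn3, Samd4, Sema5a, Tcf7l2 and Foxc1 made up the 8 widest, with peaks of 2652 to 2737 bp. Of the 8, Igf1r, Gfra1, Tcf7l2 and Foxc1 had a FAIRE peak within. Tcf7l2, a transcription factor of the Wnt pathway, also had a STARR peak there, and had 0.216 and 0.206 FPKM in activated cells and 1.69 and 1.61 FPKM in resting cells. Tcf7l2 passed the filter of the test described below only through resting cells, and the other 7 did not pass it.

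MicroRNA loci had H3K27ac-free peaks at a lower share than genes as a whole. Of 665 rows with a Mir symbol 22 (3.31%) had one, against 8.16% of all rows, including Mira and Mir22hg, which are long transcripts. The other 20 were listed at 0 in all 4 samples, which says nothing of the mature microRNA. Mature sequences are shown for loci that share a product or a seed, from RefSeq, with the seed (bases 2 to 8) in capitals. Mir9-1 and Mir9-2, on chromosomes 3 and 13, encode the same neural microRNA and had peaks of 1704 and 1659 bp. Mir34b and Mir34c shared 1 peak of 500 bp on chromosome 9, and Mir449c on chromosome 13 had one of 1133 bp.
mmu-miR-9-5p: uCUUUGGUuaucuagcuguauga
mmu-miR-9-3p: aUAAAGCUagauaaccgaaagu
mmu-miR-34b-5p: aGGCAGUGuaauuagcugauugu
mmu-miR-449c-5p: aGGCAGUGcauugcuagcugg
mmu-miR-34b-3p: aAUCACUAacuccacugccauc
mmu-miR-34c-3p: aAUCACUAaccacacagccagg
The 5p arms of miR-34b and miR-449c had the same seed, as did the 3p arms of miR-34b and miR-34c.

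Between activated and resting cells the tested genes near H3K27ac-free peaks included higher and lower ones. The test (limma on log2(FPKM + 1), with at least 1 FPKM in at least 2 samples) covered 10863 genes, of which 28.2% were called higher and 26.2% lower at an adjusted p under 0.05. Of the 1944 genes 507 passed that filter, 104 were called higher (20.5%), 253 lower (49.9%) and 150 neither, with a median log2 difference of -0.50 against 0.03 over all genes tested. The filter fixes the direction of part of these calls. It was passed by 143 of the 507 genes through resting cells alone, and 141 of those were called lower, the only direction open to them. Through activated cells alone it was passed by 55, of which 50 were called higher. Over all genes tested the same held for 603 (580 called lower) and 380 (356 called higher). Without resting replicate 1 or 2 the lower calls were 61 and 62 of 362 and 363 genes tested (16.9% and 17.1%), against 1229 of 10240 and 1191 of 10236 over all genes in the same fits. Without activated replicate 1 or 2 the higher calls were 48 of 451 and 54 of 450, against 27.3% and 21.7% of all genes, and without resting replicate 1 or 2 they were 55 and 60 (15.2% and 16.5%), against 16.9% and 20.8%.

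**Figure D4:**
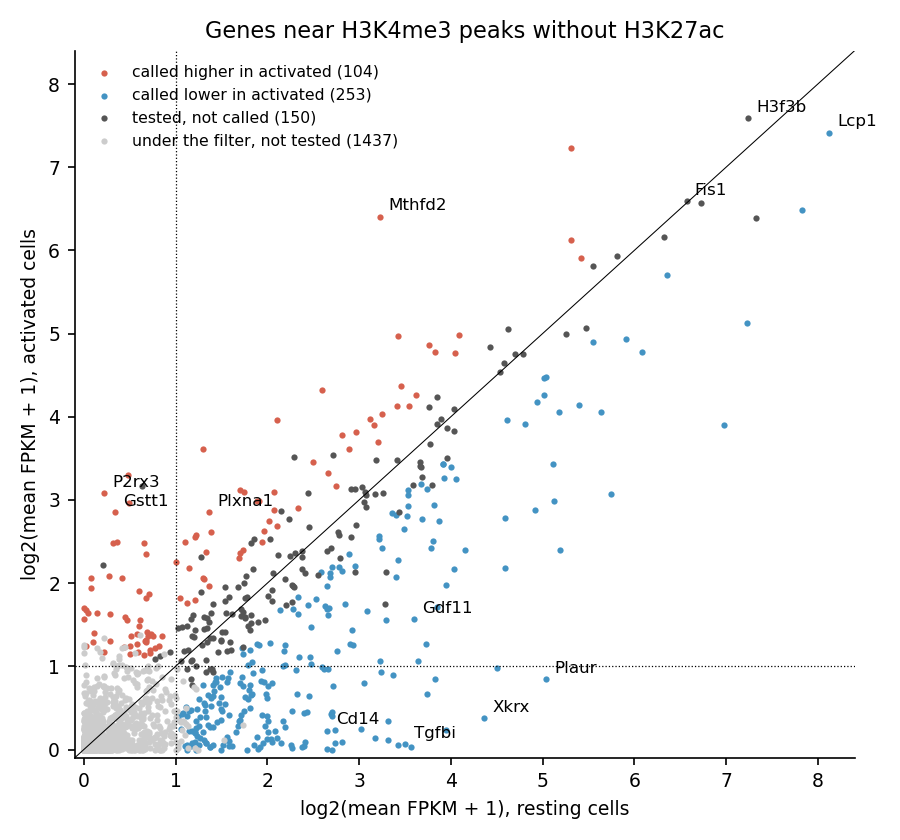
Mean level of the 1944 genes near H3K4me3 peaks without H3K27ac, as log2(FPKM + 1), in activated cells (vertical) against resting cells (horizontal), coloured by limma call. Most points lie in the lower left square under 1 FPKM in both states (1391 genes), 104 are called higher and 253 lower.

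The silent genes with the highest resting levels are given as a description, since they were chosen for being under 1 FPKM in activated cells and high in resting cells. Plaur, the urokinase receptor of monocytes and other leukocytes, had 1.03 and 0.561 FPKM in activated cells and 30.3 and 33.5 FPKM in resting cells (log2 difference -4.21 ± 0.18 SE). Its peak was 500 bp wide (mm9 chr7:25247536-25248035) and 4175 bp from H3K27ac. Xkrx, a membrane protein of the XK family, had 0.350 and 0.256 FPKM in activated cells and 19.6 and 19.6 FPKM in resting cells (log2 difference -3.98 ± 0.16 SE). Its peak of 749 bp (mm9 chrX:130697118-130697866) lay 102289 bp from H3K27ac and 343 bp from a FAIRE peak. The 2 states were far apart for both genes in every sample.

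Cyp27a1, which hydroxylates sterols, had 0.184 and 0.172 FPKM in activated cells and 14.4 and 14.4 FPKM in resting cells (log2 difference -3.71). Kbtbd11, a Kelch domain protein, had 1.07 and 0.881 FPKM in activated cells and 20.2 and 23.2 FPKM in resting cells. Spns2, a transporter of sphingosine 1-phosphate, had 1.01 and 0.595 FPKM in activated cells and 11.7 and 14.7 FPKM in resting cells. Of these 5 genes only Cyp27a1 had a FAIRE peak in its H3K27ac-free peak. Tgfbi, an extracellular matrix protein made by macrophages among others, had 0 and 0.0984 FPKM in activated cells and 8.03 and 12.6 FPKM in resting cells. Itgad, an integrin of macrophages, had 0.0624 and 0.0130 FPKM in activated cells and 9.87 and 9.59 FPKM in resting cells.

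For Rgs1 the resting samples lay far apart. Rgs1, a brake on chemokine receptor signalling, had 0.613 and 0.550 FPKM in activated cells and 20.4 and 4.32 FPKM in resting cells (log2 difference -2.76 ± 0.74 SE). It passed the filter only through resting cells, which fixes the direction of its call, so no p is given. Without activated replicate 1 or 2 its log2 difference was -2.78 and -2.73. Rgs1 was no longer tested when a resting replicate was left out, because only 1 sample then reached 1 FPKM, and the same holds for Xkrx, Cyp27a1, Tgfbi, Itgad, Tcf7l2, Tbx21, Tcf7, Cebpa, Cd14 and Epor. The myeloid and erythroid sums were lower in activated cells too, as stated above, and their part was not tested.

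The largest rises were in Mthfd2, P2rx3, Dnph1, Gstt1, Gcat and Cox6a2. Mthfd2, an enzyme of mitochondrial folate metabolism, rose to 74.3 and 93.3 FPKM in activated cells, against 7.81 and 8.99 FPKM in resting cells (log2 difference 3.17 ± 0.18 SE, limma, adjusted p = 6.5e-05). Its H3K27ac-free peak of 500 bp was at the end of the gene, and an acetylated peak stood near the other. Dnph1, a nucleotide hydrolase, had 7.27 and 10.4 FPKM in activated cells and 0.487 and 0.310 FPKM in resting cells (log2 difference 2.80 ± 0.21 SE). It had no acetylated H3K4me3 peak at an end or inside the locus, and its peak of 756 bp (mm9 chr17:46633529-46634284) held 2 FAIRE peaks. Gstt1, a glutathione transferase, had 4.38 and 8.07 FPKM in activated cells and 0.131 and 0.401 FPKM in resting cells, also with no acetylated peak and with no FAIRE peak within 15335 bp.

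P2rx3, a channel opened by ATP, had 9.71 and 5.28 FPKM in activated cells and 0.213 and 0.117 FPKM in resting cells. Gcat, an enzyme of threonine breakdown, had 5.38 and 8.24 FPKM in activated cells and 0.290 and 0.532 FPKM in resting cells. Both genes also had an acetylated peak near an end. P2rx3, Gcat, Dnph1 and Gstt1 passed the filter only through activated cells, which fixes the direction of their calls, so no p is given for them. Cox6a2, a respiratory chain subunit, shared its 500 bp peak with Itgad and had 16.7 and 5.74 FPKM in activated cells and 1.16 and 1.76 FPKM in resting cells (limma, adjusted p = 0.012), with adjusted p of 0.0888 and 0.0537 without resting replicate 1 or 2. Itgad had its higher values in resting cells and Cox6a2 in activated cells, beside the same H3K27ac-free peak. Slc16a3, a lactate exporter, had 1.82 and 14.1 FPKM in activated cells and 0.515 and 0.583 FPKM in resting cells. Its activated samples lay above both resting ones but far apart, and it was not called. It too passed the filter only through activated cells, so no p is given.

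**Figure D5:**
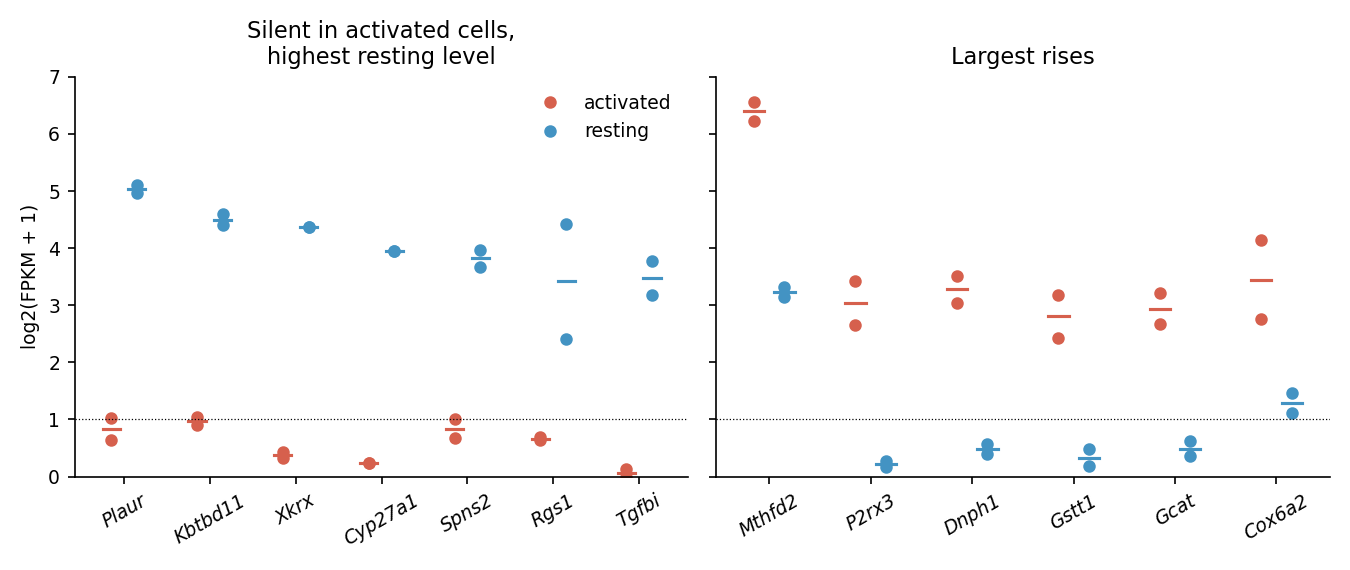
Level in each sample, log2(FPKM + 1), of 7 of the 8 silent genes with the highest resting mean (left) and of the 6 largest rises (right), with activated samples in red left of resting samples in blue. Points are single samples, short lines the mean of 2 on the log scale, and the dotted line 1 FPKM; activated and resting points do not overlap for any gene shown.

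Several of the most highly expressed of the 1944 genes had their H3K27ac-free peak at the gene's end. Of the 8 highest in activated cells (H3f3b, Lcp1, C1qbp, Fis1, Arf6, Ptpn6, Mthfd2, Grcc10), 7 had a peak of exactly 500 bp, 6 had an acetylated peak of any width near an end, and 5 had the H3K27ac-free peak at the transcript's end by the RefSeq strand. H3f3b, a histone H3.3 gene, had 191 and 194 FPKM in activated cells and 137 and 163 FPKM in resting cells, with its H3K27ac-free peak at the gene's end and 488 bp from H3K27ac. It was not called (limma, adjusted p = 0.19). C1qbp, a mitochondrial protein, rose to 113 and 186 FPKM in activated cells, against 35.0 and 42.3 FPKM in resting cells (limma, adjusted p = 0.0017). Ptpn6, a phosphatase that restrains B cell receptor signals, fell to 102 and 75.2 FPKM in activated cells, against 219 and 233 FPKM in resting cells (limma, adjusted p = 0.0031). It shared its peak with Grcc10.

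Without any acetylated peak near an end, the highest genes in activated cells were Fis1, Grcc10, Wipf1, Uba1, Zfand6, Lrrfip1, Sp1 and Rassf5. Fis1, which takes part in mitochondrial fission, had 99.1 and 92.2 FPKM in activated cells and 81.0 and 107 FPKM in resting cells, with overlapping groups (limma, adjusted p = 0.89). Its peak of 909 bp at the gene's start (mm9 chr5:137428744-137429652) held a FAIRE peak and a STARR peak and lay 7774 bp from H3K27ac. An acetylated peak stood elsewhere in the Fis1 locus, as it did for Wipf1, Uba1, Lrrfip1 and Rassf5. Sp1, a general transcription factor, and Zfand6, a zinc finger protein, had none. Sp1 had 28.6 and 33.4 FPKM in activated cells and 38.1 and 36.6 FPKM in resting cells (limma, adjusted p = 0.22), and its peak of 802 bp (mm9 chr15:102237122-102237923) held 2 FAIRE peaks. Zfand6 had 61.3 and 58.9 FPKM in activated cells and 46.5 and 63.9 FPKM in resting cells (limma, adjusted p = 0.60), and its peak of 1416 bp held 2 FAIRE peaks and a STARR peak. Rassf5, an adaptor for lymphocyte adhesion, fell to 29.7 and 29.6 FPKM in activated cells, against 58.2 and 60.1 FPKM in resting cells (limma, adjusted p = 0.0030).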

How the data were processed

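Peak lists and RNA values were used as deposited. The submitters' processing notes name Bowtie, Bowtie2, HOMER, STAR, TopHat2 and bedtools and the build mm9, with no role or version. The authors deposited 1 peak list for each of H3K4me3, H3K27ac, FAIRE and STARR, with positions and no score, so replicates cannot be compared. The deposited RNA values carry no named unit and were treated as FPKM because they are not whole and their sums differ (244602 to 287884 per sample). Loci have no strand, so overlapping and antisense genes cannot be told apart. Coordinates are 1-based.

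Peaks were joined by any shared base, and genes by a locus end within 1 kb. Shares have exact Clopper-Pearson 95% intervals. RNA was tested with limma 3.58.1 (trend and robust, R 4.3.3) on log2(FPKM + 1), Benjamini-Hochberg adjusted over 10863 genes, which understates changes of low genes. The fit was tested on simulated data. Named genes were the silent genes with the widest peaks or the highest resting levels, and the genes with the highest activated levels. The largest called changes and the widest peaks of each list and class were named too. The peaks, gene lists, classes and alternatives were chosen with earlier results of these data known. A few genes that these rules select are not reported here.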

Additional observations from a re-analysis of the deposited data

How the results depend on the processing

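The share of genes silent in activated cells was 79.1% with a distance of 2 kb, 84.0% without genes near an acetylated peak, 73.9% at a threshold of 0.5 FPKM and 87.1% at 2 FPKM. It was 80.6% to 81.7% with 1 activated replicate. The share under threshold in resting cells was 67.6% at 0.5 FPKM and 83.3% at 2 FPKM, and 75.3% to 76.2% with 1 resting replicate. FAIRE overlap was 5.67% where at least 50% of the H3K4me3 peak had to be covered and 42.9% within 1 kb, and STARR overlap was 9.63% within 1 kb. Without a filter on low values 183 genes were called higher and 384 lower, of 1721 tested (10.6% and 22.3%), against 17.2% and 18.1% of all genes. Leaving out 1 replicate gave 48 to 60 higher calls (10.6% to 16.5% of genes tested, against 16.9% to 27.3% of all genes) and 61 to 253 lower calls (16.9% to 56.1%, against 11.6% to 27.1%). Fewer samples and fewer genes enter those fits.

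The replicate numbers are not shown to pair samples: deviations of same-numbered samples correlated at 0.124 across 10863 genes, with only 2 pairs. With the replicate block 108 genes were higher and 254 lower, against 104 and 253 without it. Of 306 values of single genes under these alternatives, 278 kept their direction and side of the threshold, 21 lost the call and 3 gained it, and 44 more could not be tested. The other 4, all without a call, changed sign with 1 sample left out. Over those fits the log2 difference of Fis1 was -0.16 to 0.24 (-0.0128 without activated replicate 1), that of Zfand6 was -0.086 to 0.36, and that of Hist3h2ba was -0.84 to 0.17. The FPKM table has no read totals, and levels of a few fragments limit what can be told of silent genes.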
